A study of Danio rerio with 2 samples.

Results

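Cohesin is the protein ring that holds sister chromatids together, and the data described here are the transcript levels of 8 cohesin genes in zebrafish testis cells at 7 stages of spermatogenesis. The 8 genes were listed by symbol: smc1b, rec8a, rec8b, stag3 and rad21l1, which encode subunits that other vertebrates use in meiosis, and smc3, rad21a and esco2, which also serve dividing body cells. The files name genes by Ensembl identifier only, and each of the 8 symbols matched 1 identifier among the 32520 genes of the files. The data are scRNA-seq libraries of dissociated testes from adult males aged 6 months, 1 library for each of 2 replicates, in the AB/Tübingen background by the study's methods. The labels describe the fish as wild type in one field and as transgenic in another, name no transgene and do not say how many fish gave each library. There is no treatment, and the comparisons are between stages within the same testes.

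A cohesin ring is built from 2 SMC proteins, a kleisin that closes the ring, and a STAG protein that binds the kleisin. In dividing body cells these are SMC1A, SMC3, RAD21 and STAG1 or STAG2. In the meiosis of mammals SMC1B stands in for SMC1A, REC8 and RAD21L stand in for RAD21, and STAG3 stands in for STAG1 and STAG2, while SMC3 is kept. The meiotic rings form the axes along which homologous chromosomes pair, and REC8 holds sister chromatids together until separase cuts it at the meiotic divisions. ESCO2 acetylates SMC3 while DNA is copied, which locks the ring around the sister chromatids. The stages follow from undifferentiated type A spermatogonia (SPG-Aun) through differentiating type A (SPG-Ad) and type B spermatogonia (SPG-B), which still divide by mitosis, to primary spermatocytes (SPC-I), which copy their DNA once more and go through meiotic prophase. Secondary spermatocytes (SPC-II) lie between the meiotic divisions and give rise to round (SPT-r) and elongated spermatids (SPT-e).

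In the 10x 3′ assay molecules are tagged with unique molecular identifiers (UMIs) so that copies of one transcript count once, and a level is given as CPM, the UMIs of a gene per 1000000 UMIs of a stage after edgeR's TMM scaling. UMIs were summed over the cells of each stage and replicate, which gave 14 sums of 693732 to 10886597 UMIs from 1999 cells of replicate 1 and 3994 of replicate 2, with 135 to 888 cells in a sum. The study staged cells of both replicates, but the copy of its labels used here held cells of replicate 1 only. Replicate 1 thus carries the study's own stage labels and replicate 2 labels voted by its nearest neighbours among the labelled cells. This vote was tested by hiding labels within replicate 1. It returned the right stage for 65.2% of SPG-B, 78.1% of SPG-Ad and 87.4% to 97.3% of cells of other stages. Transfer to replicate 2 itself was not measured. The libraries shared 8 cell barcodes, and 2 clusters with 941 cells of replicate 2 had almost no counterpart in replicate 1 and got no stage. The spermatogonial, spermatocyte and spermatid marker sums were each highest in a stage of their own kind, but not every marker followed the labels. The 4 spermatocyte markers summed to 8416 ± 27.3 CPM in SPC-I (SD, n = 2 replicates), the most of any stage, against 1034 ± 7.02 in SPG-Aun. Of these, sycp3, dmc1 and sycp2 peaked in SPC-I in both replicates, while sycp1 peaked in SPT-r, at 4308 and 5386 CPM. Its level was 1634 and 1979 CPM for SPC-I, against 3183 and 3339 for SPC-II, where it led the spermatocyte sum. For SPC-II no gene list marks the stage as such, and its spermatocyte and spermatid markers summed to 5375 ± 167 and 2148 ± 102 CPM. Differences between stages were tested with edgeR's quasi-likelihood test, adjusted by Benjamini-Hochberg over all 13949 genes tested, and called at an adjusted p under 0.05. Each replicate is 1 library, so the p-values rest on the spread between the 2 sums of a stage, estimated over all stages. Cells of replicate 2 were staged by likeness to cells of replicate 1. That spread is thus not the one between libraries staged independently. The study drew its stages from clusters of these same counts. The tests between stages are thus not independent of that choice for any gene.

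Of the 8 genes, 7 passed the filter on low counts. The exception was rec8a, with 45 UMIs in all cells with a stage, which was not tested. Over the 7 stages the F test called all 7, beside 88.4% of all genes tested, so that a change over the stages as such does not set them apart. By mean level 6 of the 7 were highest in SPC-I, while rad21a was among its lowest there. The share of all genes highest in SPC-I was not counted. SPC-I was called above the next highest stage for smc1b and rec8b only. In mean UMIs per 100 cells SPG-Ad was above SPC-I for smc3 (1083 against 872), rad21l1 (616 against 474) and esco2 (1287 against 656). On that scale smc1b, rec8b and stag3 were higher in SPC-I than in SPG-Ad.

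smc1b (ENSDARG00000014402.10), the meiotic SMC1 subunit, was already well expressed in spermatogonia. In replicates 1 and 2 it had 572 and 447 CPM in SPG-Aun, then 634 and 514 in SPG-Ad, then 791 and 666 in SPG-B, then 1459 and 1245 in SPC-I, then 283 and 283 in SPC-II, then 80.4 and 83.8 in SPT-r, and at last 264 and 290 in SPT-e. SPC-I stood above every other stage in both replicates, and SPT-r below every other. SPC-I was 1.18 ± 0.14 higher on the log2 scale than the mean of the 3 spermatogonial stages (± SE, adjusted p = 4.66e-06 in edgeR), and 18.1-fold and 14.9-fold above SPT-r in the replicates. The study lists smc1b as a marker of SPC-I from these same cells, so its peak there is not independent of that choice.

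smc3 (ENSDARG00000019000.10), the SMC subunit that mitotic and meiotic rings share, had nearly the profile of smc1b at a higher level in spermatogonia. It stood at 742 and 564 CPM in SPG-Aun, then 782 and 629 in SPG-Ad, then 903 and 785 in SPG-B, then 1239 and 1049 in SPC-I, then 299 and 262 in SPC-II, then 183 and 191 in SPT-r, and at last 342 and 336 in SPT-e. The range over the stages was narrower than that of smc1b, 6.78-fold in replicate 1 and 5.49-fold in replicate 2. SPC-I was 0.65 ± 0.15 above the mean of the spermatogonial stages (log2, adjusted p = 0.00144 in edgeR), and when scaled by cell number this difference was 0.00 and no longer called. The log2 ratio of smc1b to smc3 was 0.24 ± 0.01 in SPC-I (SD, n = 2), where UMIs of smc1b outnumbered those of smc3, and −0.36 ± 0.03 in SPG-Aun. A 3′ UMI counts a molecule once whatever its length, so these ratios are of molecules captured.

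**Figure D1:**
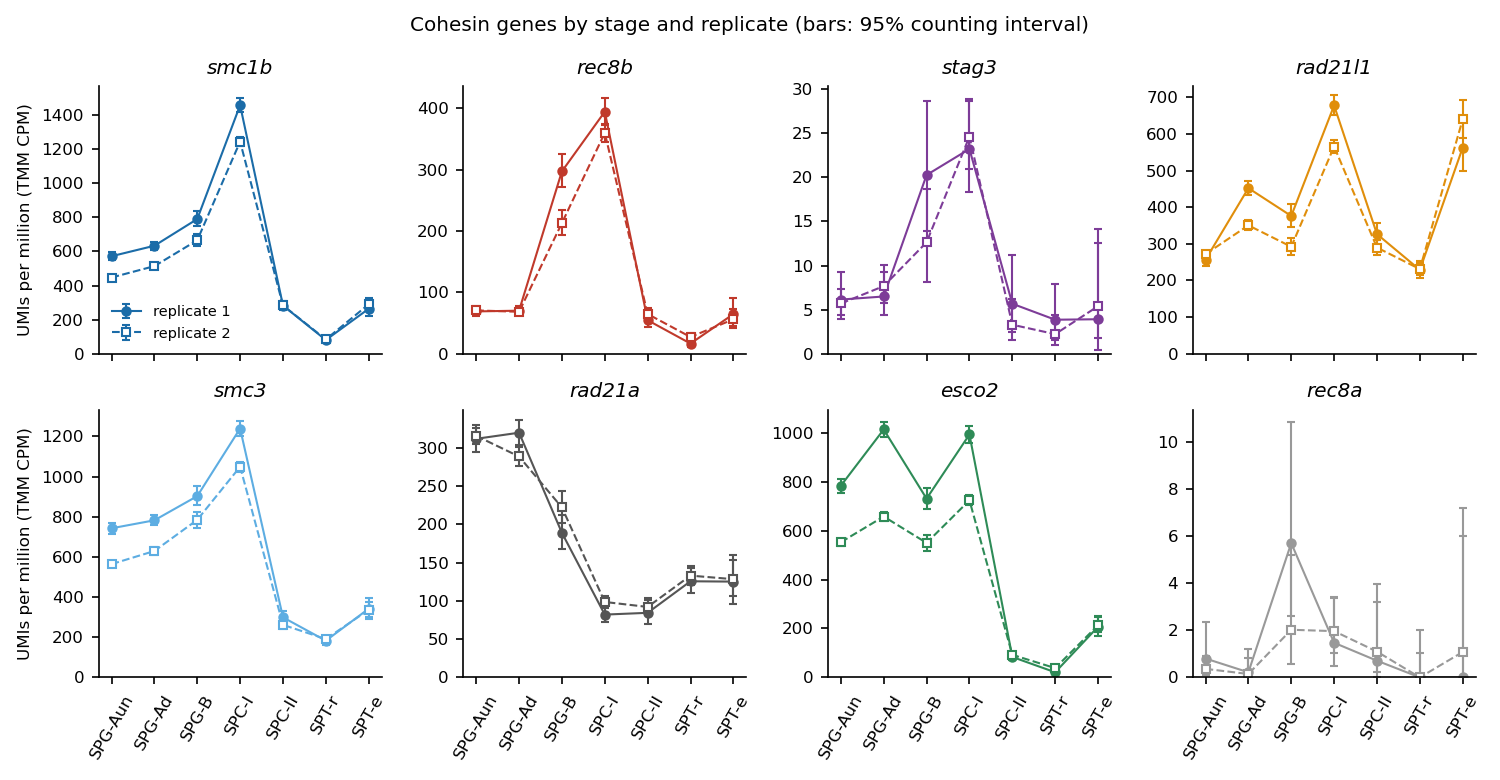
Level of each of the 8 cohesin genes (CPM with TMM scaling, linear axes from 0) at the 7 stages in order, with filled circles for replicate 1, open squares for replicate 2 and bars for the 95% counting interval. smc1b, rec8b, stag3 and smc3 peak in SPC-I in both replicates, and rad21a runs the other way with 82.0 and 98.5 CPM there. By CPM rad21l1 has a second high in SPT-e (563 and 640), but per 100 cells its mean is lowest there (69.0 UMIs).

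The kleisins moved in different ways. rec8b (ENSDARG00000069260.6), a homolog of REC8, rose early. It had 68.9 and 70.5 CPM in SPG-Aun, then 70.1 and 68.3 in SPG-Ad, then 297 and 213 in SPG-B, then 394 and 360 in SPC-I, then 54.6 and 64.6 in SPC-II, then 16.5 and 27.2 in SPT-r, and at last 64.5 and 56.0 in SPT-e. SPG-Aun and SPG-Ad were alike in both replicates, and SPG-B and SPC-I stood apart from all other stages. Between SPG-B and SPG-Ad rec8b rose by 1.88 ± 0.21 on the log2 scale (adjusted p = 0.000102 in edgeR), the largest rise of the 7 genes tested at that step.

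rad21l1 (ENSDARG00000022493.8), the homolog of the meiotic kleisin RAD21L, followed another course, with 257 and 272 CPM in SPG-Aun, then 452 and 351 in SPG-Ad, then 376 and 292 in SPG-B, then 678 and 566 in SPC-I, then 327 and 290 in SPC-II, then 229 and 231 in SPT-r, and at last 563 and 640 in SPT-e. With TMM scaling it was the only one of the 7 without a call of difference between SPT-e and SPC-I (log2 −0.05 ± 0.19, adjusted p = 0.864 in edgeR). On that scale replicate 2 had its highest level in SPT-e. In plain CPM, without TMM factors, rad21l1 had 415 and 401 in SPT-e, below its 771 and 642 in SPC-I. By mean UMIs per 100 cells SPT-e was instead its lowest stage, with 69.0 against 187 in SPT-r and 474 in SPC-I. In CPM the range of rad21l1 was the narrowest of the 7, 2.96-fold in replicate 1 and 2.77-fold in replicate 2. In SPG-Ad, before the rise of rec8b, it was already the most abundant kleisin in both replicates.

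rad21a (ENSDARG00000006092.8), a homolog of the mitotic kleisin RAD21, had 312 and 315 CPM in SPG-Aun, then 320 and 288 in SPG-Ad, then 189 and 222 in SPG-B, then 82.0 and 98.5 in SPC-I, then 84.3 and 92.0 in SPC-II, then 126 and 133 in SPT-r, and at last 125 and 128 in SPT-e. It was high in the type A spermatogonia, intermediate in SPG-B and low from SPC-I on, without overlap between these groups. SPC-I was lower than the mean of the spermatogonial stages, with a log2 fold change of −1.57 ± 0.14 (adjusted p = 3.13e-07 in edgeR). The other general kleisin, listed as RAD21 (ENSDARG00000035655.9), stayed between 0.633 and 7.36 CPM in all sums and was not called over the stages (adjusted p = 0.213 in edgeR).

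rec8a (ENSDARG00000078329.5), the other REC8 homolog, had 19 UMIs in replicate 1 and 26 in replicate 2. Of these 45 UMIs, 13 fell in SPG-B and 18 fell in SPC-I. Its highest level was 5.70 CPM in SPG-B of replicate 1 (9 UMIs, exact Poisson 95% interval 2.61 to 10.8) and 2.02 CPM in SPG-B of replicate 2 (4 UMIs, 0.551 to 5.18). In SPT-r it had 0 UMIs in both replicates, which allows up to 1.65 and 0.832 CPM. At this depth no order of its stages can be given. rec8b had 6913 UMIs in the same cells, so nearly all REC8-type transcripts counted came from rec8b. Intervals and limits here cover counting error only.

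Counted over the 5 kleisin genes, the make-up of the UMIs captured turned from mixed to mostly meiotic. rec8a, rec8b and rad21l1 together made up 51.3% ± 0.60 of the kleisin UMIs in SPG-Aun and 60.2% ± 1.9 in SPG-Ad (SD, n = 2). This share was 73.7% ± 6.4 for SPG-B, 91.4% ± 1.9 for SPC-I and 80.3% ± 2.0 for SPC-II. Among spermatids it was 65.2% ± 0.04 for the round and 83.5% ± 0.46 for the elongated cells. The share was highest in SPC-I in both replicates, at 92.7% and 90.1%. Within it the balance shifted as well. The share of rec8b was 34.2% and 29.0% in SPG-B, with 34.0% and 34.9% following in SPC-I. In SPC-II rec8b was down to 11.7% and 14.3%, and rad21l1 took 69.8% and 64.3%. In SPG-B the replicates differed by more than their counting intervals, with 78.2% and 69.2% meiotic kleisins, and this is the stage whose labels were recovered least.

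In the SMC1 position most UMIs came from smc1b at every stage. In SPG-Aun its share was 80.9% and 79.3%. It peaked in SPC-I, at 94.1% in both replicates, and was lowest in SPT-r, at 73.7% and 65.1%. The remainder came from the general subunit, for which 2 identifiers carry the symbol SMC1A and the zebrafish paralogs could not be told apart. SMC1A (ENSDARG00000058203) was lower in SPC-I than in the mean of the spermatogonial stages (log2 −0.40 ± 0.16, adjusted p = 0.0421 in edgeR), with 86.7 and 75.1 CPM in SPC-I. SMC1A (ENSDARG00000055754) was the rarer of the pair in spermatogonia and was called higher in SPT-r than in SPC-II, with 20.9 and 34.1 CPM in SPT-r and 9.2 and 6.2 in SPC-II.

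**Figure D2:**
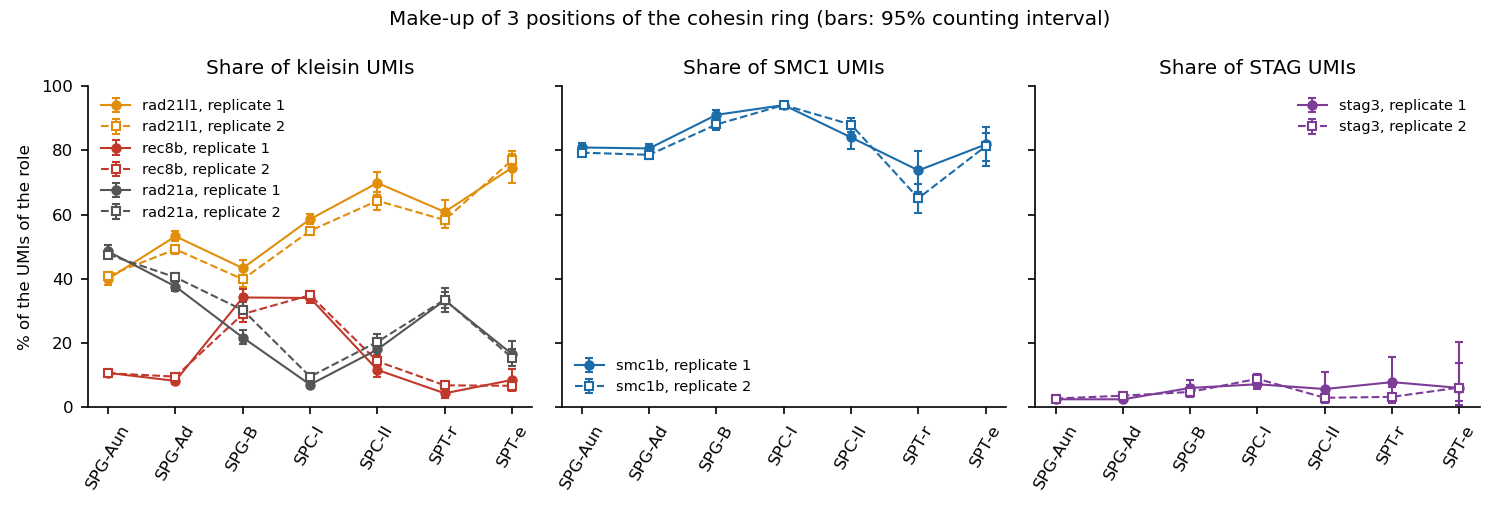
Share of the UMIs of 3 ring positions (% of the UMIs of all genes of that position, axis from 0 to 100) that came from rad21l1, rec8b and rad21a among the kleisins, from smc1b among the SMC1 genes and from stag3 among the STAG genes, by stage and replicate with the 95% counting interval. The share of rad21a is 7.1% and 9.6% in SPC-I, against 48.5% and 47.6% in SPG-Aun, and stag3 stays at or below 8.9% throughout.

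stag3 (ENSDARG00000104388.2), the meiotic STAG subunit, was the rarest of the 7 genes tested. It had 6.14 and 5.70 CPM in SPG-Aun, then 6.49 and 7.67 in SPG-Ad, then 20.3 and 12.6 in SPG-B, then 23.2 and 24.6 in SPC-I, then 5.67 and 3.29 in SPC-II, then 3.85 and 2.22 in SPT-r, and at last 3.91 and 5.39 in SPT-e. SPG-B and SPC-I were above all other stages in both replicates. SPC-I was 1.44 ± 0.23 above the mean of the spermatogonial stages (log2, adjusted p = 8.40e-05 in edgeR), and the order of SPC-I and SPG-B themselves was not resolved (0.56 ± 0.31, adjusted p = 0.18). All cells with a stage held 507 UMIs of stag3. In this position most UMIs captured came from the general genes even in SPC-I, where stag3 took 7.2% and 8.9% of the STAG UMIs. STAG1 (ENSDARG00000062137) was the leading STAG gene there, with 206 and 156 CPM and 64.0% and 56.2% of the UMIs. STAG2 (ENSDARG00000053668) took 19.6% and 23.5%, and STAG1 (ENSDARG00000061205) and STAG2 (ENSDARG00000011783) the rest.

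esco2 (ENSDARG00000014685.9), the acetyltransferase of cohesin, was high in every stage up to SPC-I and dropped after it. It had 784 and 553 CPM in SPG-Aun, then 1014 and 658 in SPG-Ad, then 731 and 550 in SPG-B, then 993 and 724 in SPC-I, then 83.6 and 92.4 in SPC-II, then 20.9 and 38.0 in SPT-r, and at last 207 and 213 in SPT-e. None of the differences among the spermatogonial stages and SPC-I was called, and replicate 1 was above replicate 2 in each of these 4 stages. Its range was the widest of the 7, 48.5-fold in replicate 1 and 19.0-fold in replicate 2. The related acetyltransferase esco1 stood between 3.23 and 19.0 CPM in all sums.

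The steps between neighbouring stages show when these differences arose. At SPG-Ad over SPG-Aun 0 of the 7 genes were called in edgeR, where 1.15% of all genes were, and 0 were called by DESeq2 as well. The largest difference was that of rad21l1, 0.60 ± 0.18 higher in SPG-Ad on the log2 scale (adjusted p = 0.231 in edgeR), and without adjustment 1 of the 7, rad21l1, was under 0.05. It was called when cells of replicate 2 needed 12 of 15 votes for their stage (0.78, adjusted p = 0.0376), and when scaled by cell number (0.88, adjusted p = 0.0283).

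At SPG-B over SPG-Ad 3 of the 7 genes were called, against 18% of all genes. rec8b and stag3 were higher in SPG-B (8.6% of all genes were called higher) and rad21a was lower (9.43% lower). stag3 was 1.19 ± 0.33 higher (adjusted p = 0.0222) and rad21a fell by 0.56 ± 0.16 (adjusted p = 0.0228, both log2 in edgeR). With a limit of 10% mitochondrial UMIs, which let more cells of replicate 2 in, rec8b alone was called, beside 1954 of 14000 genes. When scaled by cell number, which moved the median of all genes by −0.82, the call of stag3 was lost (0.41), smc1b and smc3 took the opposite sign, and smc3, esco2 and rad21l1 were called lower (−0.54, −1.18 and −1.06 on the log2 scale). At that scale 6246 of 13949 genes were called.

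At SPC-I over SPG-B 4 of the 7 were called, against 35.2% of all genes. smc1b was 0.89 ± 0.18 higher in SPC-I (adjusted p = 0.00156), rad21l1 0.90 ± 0.19 (adjusted p = 0.00177) and rec8b 0.57 ± 0.20 (adjusted p = 0.0406), beside 18.3% of all genes called higher. rad21a fell by 1.18 ± 0.16 (adjusted p = 6.77e-05, all log2 in edgeR), beside 17% called lower. The call of rec8b was the least secure of these, since 4 of the other settings ended it, with values down to 0.18 where genes were not standardised within replicates before the vote. smc3 did not pass the test at this step (0.44 ± 0.18, adjusted p = 0.0783), but was called with the replicate number as a block (0.44, adjusted p = 0.0293 in edgeR). Against the mean of the 3 spermatogonial stages 6 of the 7 were called, against 58.9% of all genes, with 5 higher (31.1% of all genes) and rad21a lower (27.8%). esco2 was the gene not called (0.27 ± 0.21, adjusted p = 0.287). For rad21l1 (0.92 ± 0.14, adjusted p = 6.40e-05) this call was lost when scaled by cell number (0.27), which moved the median of all genes by −0.60.

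At SPC-II over SPC-I nearly the whole set went down, with 6 of the 7 called lower and 0 higher, beside 31.9% of all genes called, 15% lower and 16.9% higher. In edgeR, esco2 fell by 3.28 ± 0.30 on the log2 scale (adjusted p = 3.22e-06), rec8b by 2.65 ± 0.22 (1.54e-06), stag3 by 2.50 ± 0.37 (0.000158), smc1b by 2.26 ± 0.19 (1.60e-06), smc3 by 2.03 ± 0.19 (4.30e-06) and rad21l1 by 1.01 ± 0.19 (0.000802). The median over the 7 genes was −2.26, beside −0.01 over all genes tested. rad21a did not pass the test (−0.03 ± 0.17, adjusted p = 0.907), and its sign turned when scaled by cell number and without standardising within replicates. By value these 6 genes were also below each of their spermatogonial levels in both replicates, except rad21l1, which had 327 and 290 CPM in SPC-II against 257 and 272 in SPG-Aun.

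**Figure D3:**
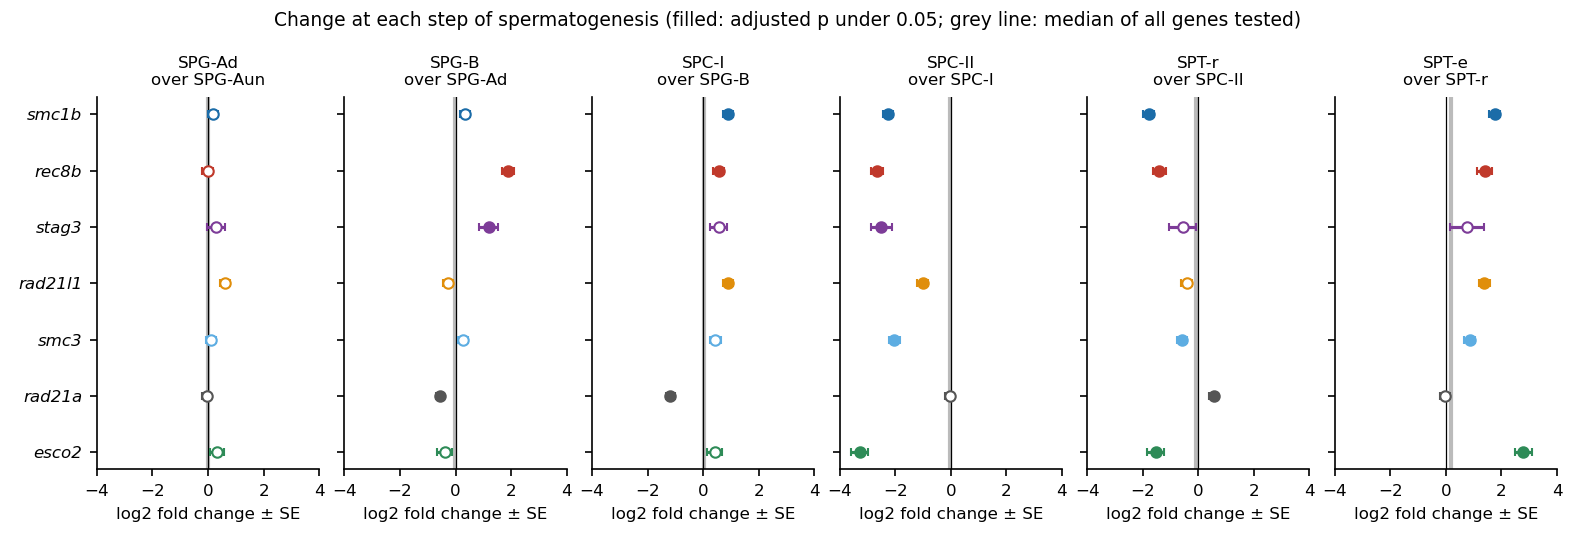
Log2 fold change (± SE, x axis) of the 7 cohesin genes tested at each of the 6 steps between neighbouring stages, later stage over earlier, with filled points for an adjusted p under 0.05 and a grey line at the median of all genes. The widest move is the fall at SPC-II over SPC-I, from −1.01 for rad21l1 to −3.28 for esco2, where rad21a stays at −0.03.

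At SPT-r over SPC-II 5 of the 7 were called, against 32.1% of all genes, with 4 lower (12.9% of all genes) and 1 higher (19.2%). smc1b fell by 1.78, esco2 by 1.54, rec8b by 1.41 and smc3 by 0.58, the last with 5 settings that ended the call. rad21a was 0.55 higher, with 126 and 133 CPM in SPT-r against 84.3 and 92.0 in SPC-II, and was not called when scaled by cell number (0.22). In plain CPM, without TMM factors, it had 121 and 114 in SPT-r against 110 and 113 in SPC-II, so replicate 2 was nearly level. rad21l1 did not pass the test (−0.42, adjusted p = 0.102 in edgeR). It was the most abundant of the 7 in SPT-r, at 229 and 231 CPM, as it had been in SPC-II, at 327 and 290.

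At SPT-e over SPT-r 5 of the 7 were called, all higher in SPT-e than in SPT-r by CPM, against 27.2% of all genes called, 17.2% higher and 10.1% lower, but all 5 took the opposite sign when scaled by cell number. By TMM scaling esco2 was 2.79 ± 0.32 higher (adjusted p = 2.59e-05), smc1b 1.76 ± 0.20 (2.36e-05), rec8b 1.40 ± 0.27 (0.00157), rad21l1 1.39 ± 0.19 (0.000133) and smc3 0.86 ± 0.19 (0.00493, log2 in edgeR). The median cell had 1374 and 1347 UMIs in SPT-e, against 7998 and 8722 in SPT-r. Per 100 cells there were 67.6 and 70.3 UMIs of rad21l1 in SPT-e against 187 and 186 in SPT-r, 31.7 and 31.8 of smc1b against 65.8 and 67.4, and 24.9 and 23.4 of esco2 against 17.1 and 30.6. With that scale the log2 fold changes were −1.44 for rad21l1, −1.07 for smc1b and −0.03 for esco2, while the median of all genes moved to −2.62. Relative to all other transcripts of the cell the 5 genes were thus higher, and in UMIs captured per cell 4 of them were lower and esco2 about level.

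Some marker sums, but not all, rose in both replicates at this last step by CPM. The 4 spermatogonial markers ddx4, piwil1, nop56 and pcna summed to 749 and 1663 CPM in SPT-e against 301 and 453 in SPT-r, with none of the 4 at 0 in any of these sums. The 6 Leydig markers summed to 121 and 358 CPM in SPT-e against 77.1 and 129 in SPT-r, with 2, 0, 1 and 1 of the 6 at 0. Most of this sum was insl3, at 111 and 330 CPM in SPT-e. The immune markers summed to 68.4 and 21.6 CPM in SPT-e against 46.2 and 28.3 in SPT-r. For the Sertoli markers the sums were 3.91 and 19.4 against 4.95 and 9.71. These last sums each rose in 1 replicate and fell in the other. The part of any of these markers in the result was not tested. Without cells called as doublets by Scrublet, esco2 (2.13), smc1b (1.00) and rad21l1 (1.42) were still called, rec8b (0.31, adjusted p = 0.579) and smc3 (0.19, adjusted p = 0.541) were not, and the 3 genes called stand in place of 5. In that setting 3415 of 13922 genes were called. rad21l1 was the one gene of the 5 whose value did not shrink.

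**Figure D4:**
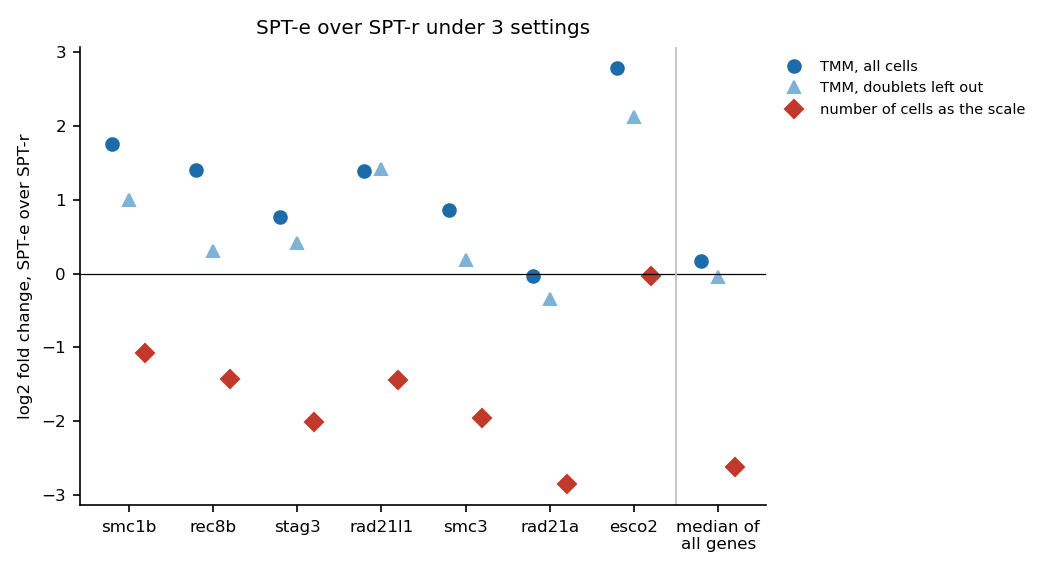
Log2 fold change of SPT-e over SPT-r (y axis) for the 7 genes and for the median of all genes tested, with TMM scaling of all cells (circles), with TMM scaling without doublets (triangles) and when scaled by cell number (diamonds). The first setting puts esco2, smc1b, rec8b, rad21l1 and smc3 at 0.86 to 2.79, and the last puts them at −0.03 to −1.96 while the median of all genes lies at −2.62.

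Counts of cells told how widely the transcripts were spread. Each cell was thinned to 500 UMIs so that stages of unlike depth could be set side by side, and no cell was shallower than that. smc1b then had a UMI in 51.4% (exact 95% interval 46.6% to 56.1%) and 48.2% (44.9% to 51.5%) of SPC-I cells, beside 95.7% and 96.1% before thinning. rec8b had one in 2.92% and 3.43% of SPG-Aun cells, 18.5% and 12.1% of SPG-B cells and 21% and 19% of SPC-I cells. rad21a ran the other way, with 5.71% and 5.52% in SPC-I and 17.5% and 14.3% in SPG-Aun.

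Cells of 2 non-germ clusters, one with raised Sertoli and immune markers and one with raised Leydig markers, gave the background, with 50 cells of replicate 1 and 81 of replicate 2 at median depths of 4176 and 9382 UMIs. Of the 81 cells, 10 also carried a stage (9 SPG-Aun and 1 SPG-B) and so count in both. After thinning, rad21l1 had a UMI in 17.4% (13.9% to 21.3%) and 16.9% (14.5% to 19.6%) of SPT-e cells, against 4% (0.49% to 13.7%) and 8.64% (3.55% to 17%) of the non-germ cells. With so few non-germ cells their intervals are wide, and the shares of smc1b in SPT-e (6.81% and 4.38%), of esco2 (5.63% and 2.84%) and of rec8b (1.88% and 0.947%) lay within them, so that no difference in share was detectable at this depth.

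The levels in CPM, which use all UMIs of these cells, lay further apart. In plain CPM without TMM factors, rad21l1 had 415 and 401 CPM in SPT-e against 58.5 and 40.3 in the non-germ cells, and smc1b 195 and 182 against 94.8 and 32.5. rec8b had 47.6 and 35.1 CPM in SPT-e (intervals 32.7 to 66.8 and 26.2 to 46.0) against 11.2 and 13.4 in the non-germ cells (3.04 to 28.5 and 6.94 to 23.5). For these 3 genes the counting intervals did not overlap in either replicate. SPT-e cells were shallower than the non-germ cells, so the same background UMIs per cell would give a higher CPM in SPT-e. These levels thus cannot separate SPT-e from the background per cell, and the part of background in them was not tested. esco2 had 153 and 134 CPM in SPT-e against 134 and 25.8, and its intervals overlapped in replicate 1. Without the 10 cells that carry a stage, an alternative chosen after seeing the data, replicate 2 of the non-germ cells had 30.2 CPM of rad21l1, 23.2 of smc1b, 6.97 of rec8b and 16.3 of esco2.

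The study divides the cells into 13 clusters, and levels in these, also in plain CPM, show variation inside the stages. The clusters were made from these same cells, so the values are a description without a test. SPC-I holds 2 clusters. Cluster 4 had more of the spermatid gene tekt1 (626 and 629 CPM, against 82.0 and 84.9 in cluster 0) and less of the replication gene pcna (64.8 and 72.8 against 521 and 386). rec8b had 238 and 246 CPM in cluster 4 against 554 and 528 in cluster 0, stag3 10.0 and 7.08 against 34.7 and 43.6, and smc1b 1273 and 1051 against 1854 and 1674. rad21l1 went the other way, with 857 and 680.5 CPM in cluster 4 against 728 and 604 in cluster 0, so that the meiotic kleisins did not move together within SPC-I. smc3 (985 and 848 against 1624 and 1447) and esco2 (728 and 549 against 1333 and 1025) moved like rec8b.

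SPG-B also holds 2 clusters. In cluster 10, which had more sycp3, a gene of the synaptonemal complex (2272 and 2204 CPM, against 1253 and 1271 in cluster 12), rec8b had 349 and 260 CPM against 269 and 150, and rad21a had 122 and 170 against 269 and 290. The fall of rad21a between type A spermatogonia and SPG-B was thus larger in cluster 10 than in cluster 12. The type A clusters had 299 to 346 CPM in replicate 1 and 281 to 334 in replicate 2. Cluster 12 was below that range in replicate 1 and within it in replicate 2. In SPG-Ad, rec8b and rad21l1 were both higher in cluster 8 (105 and 97.3, and 560 and 404 CPM) than in cluster 6 (51.5 and 35.2, and 407 and 295). Among elongated spermatids, rad21l1 had 474 and 468 CPM in cluster 2 and 248 and 247 in cluster 1, where the median cell had 869 and 875 UMIs against 1896 and 1831.

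**Figure D5:**
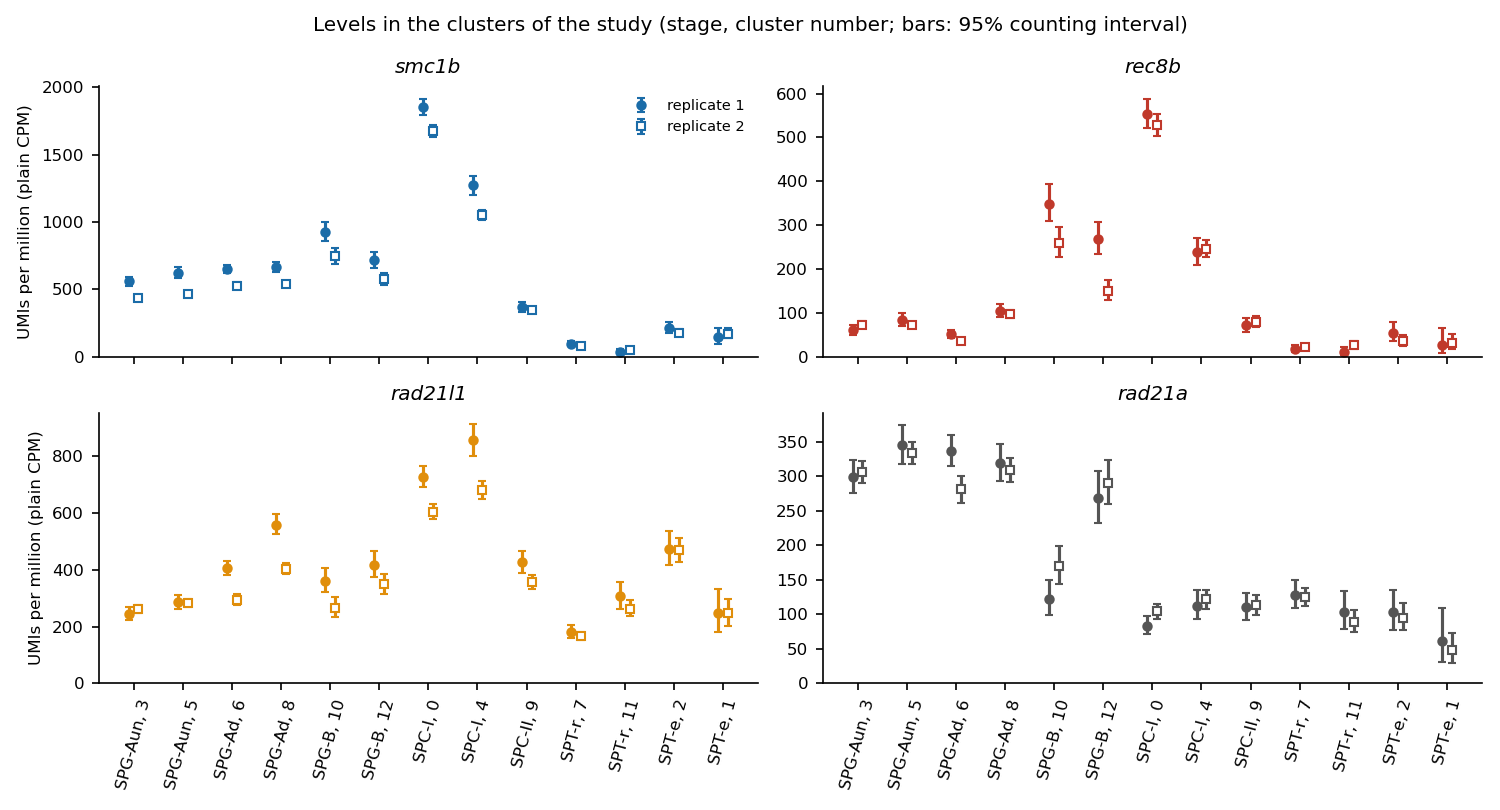
Level of smc1b, rec8b, rad21l1 and rad21a (plain CPM without TMM factors, linear axes from 0) in the 13 clusters of the study, grouped by stage, for replicate 1 (filled) and replicate 2 (open) with the 95% counting interval. Cluster numbers of replicate 2 were voted by nearest neighbours in replicate 1. Of the 2 clusters of SPC-I, cluster 0 has the highest rec8b (554 and 528 CPM) and cluster 4 the highest rad21l1 (857 and 680.5 CPM).

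The likeness of profiles was measured as Pearson's r of log2 CPM over the 14 sums, as a description, since sums of 1 library share depth and cells. smc1b and smc3 had r = 0.96, rec8b and stag3 0.93, and smc3 and esco2 0.95, while rad21l1 reached at most 0.55 with any other of the 7 and rad21a was at −0.33 with rad21l1 and −0.09 with rec8b. Only genes tested that have a symbol were ranked by this likeness. Of these, the 3 closest to rec8b were PSMC3IP (0.99), nme2a (0.98) and DPYSL5 (0.97). PSMC3IP was also the closest to stag3 (0.95), followed by cyld3 (0.94) and rec8b itself (0.93). Closest to smc1b were UBAP2L, xrcc1 and FANCD2 (all 0.98), to smc3 CDK11A (0.98), STAG1 (ENSDARG00000062137, 0.97) and SMC5 (0.97), and to esco2 POLR2A, the same STAG1 and hirip3 (all 0.99). PIP4K2C (0.99), MDH2 and CSE1L (both 0.97) were closest to rad21a. For rad21l1 the closest were less close, with FASN at 0.92, VRK1 at 0.88 and si:dkey-16m19.4 at 0.86.

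The other genes of the pathway, 22 identifiers for loaders, releasing factors, protectors, separase and general subunits, all passed the filter. In SPC-I against the mean of the spermatogonial stages 8 of the 22 were called higher and 4 lower, where 31.1% and 27.8% of all genes were, with a median of −0.02 on the log2 scale, beside 0.05 over all genes. The largest rise was that of hdac8, which deacetylates SMC3 (1.30 ± 0.16, 94.7 and 76.8 CPM in SPC-I), and the largest fall that of STAG1 (ENSDARG00000061205, −1.59 ± 0.41). Among the 7 other ring subunits 1 was higher and 3 were lower. At SPG-B over SPG-Ad 4 of the 22 were higher and 3 lower (8.6% and 9.43% of all genes), led by pttg1, the inhibitor of separase (0.98 ± 0.18), and by ctcf, an insulator protein that stops cohesin on DNA (−1.60 ± 0.22). At SPC-I over SPG-B 3 were higher and 1 lower (18.3% and 17% of all genes), with the largest rise in the cohesin loader NIPBL (ENSDARG00000098272, 0.78 ± 0.20) and the fall in pttg1 (−0.51 ± 0.18).

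At SPC-II over SPC-I 3 of the 22 were higher and 7 lower (16.9% and 15% of all genes), from sgo2, a shugoshin that shields cohesin from separase (1.25 ± 0.17), to STAG1 (ENSDARG00000062137, −3.20 ± 0.28). At SPT-r over SPC-II 4 were higher and 7 lower (19.2% and 12.9% of all genes), from pttg1 (2.01 ± 0.19) to SMC1A (ENSDARG00000058203, −1.98 ± 0.25). For sgo2 the levels were 387 and 414 CPM in SPC-II, followed by 1234 and 1196 in SPT-r, then by 1065 and 882 in SPT-e. For pttg1 they were 362 and 335 CPM in SPC-II, followed by 1511 and 1287 in SPT-r, then by 4276 and 3900 in SPT-e. Both were thus well above the 7 cohesin genes tested in spermatids. Per 100 cells both were lower in SPT-e than in SPT-r. Means were 471 UMIs against 1136 for pttg1 and 112 against 986 for sgo2. At SPT-e over SPT-r 6 were higher and 3 lower by CPM (17.2% and 10.1% of all genes), from STAG1 (ENSDARG00000062137, 1.94 ± 0.36, with 39.1 and 42.0 CPM in SPT-e) to STAG2 (ENSDARG00000011783, −1.28 ± 0.33).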

How the data were processed

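Processed scRNA-seq data of adult zebrafish testes were analysed, 2 replicates of 1 library each. The authors mapped reads to danRer11 and deposited raw counts of UMIs per gene and barcode, without normalization. Cell Ranger is given as version 7.2.0 in the submitters' processing notes and 6.1.2 in the matrix headers, and the kit version differs between the labels and the study's methods. Symbols for 29201 of 32520 identifiers came from a reference table. No sequences are shown, as no genome of that build was used here.

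Cells with 200 to 7000 genes and at most 5% mitochondrial UMIs were kept, which left 3018 of 3984 and 5104 of 5996 barcodes. Replicate 1 took the study's stage labels for the 1999 cells of the copy used. Another 907 cells lay outside its range, and 112 and 169 cells formed a class not kept. Replicate 2 took the majority label of the 15 nearest labelled cells in 30 principal components of 2000 variable genes (scanpy 1.11.5), leaving out 62 cohesin and marker genes, each gene standardised within its replicate. That last detail was chosen after seeing the data. Hidden labels within replicate 1 were recovered for 89.2% of cells with it and 82.1% without it, which does not measure the transfer to replicate 2. Leiden clusters (resolution 0.5) with under 5% of cells from 1 replicate got no stage. Doublets were kept, and Scrublet called 76 and 98 cells.

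Counts were summed per replicate and stage and tested with edgeR 4.0.16 (R 4.3.3, filterByExpr, TMM, quasi-likelihood, all 14 sums in 1 fit, no replicate term) with Benjamini-Hochberg adjustment over 13949 genes. The test was checked on simulated data with changes in SPC-I alone. Counts there were independent between sums, with the same spread for every gene and flat levels over the other stages. The data differ in these respects, so the simulated rates may not hold for them. In the simulation the test recovered 45 of 88 genes changed by 1 on the log2 scale and 106 of 112 changed by 2, with 5 false calls. A gene not called can thus still differ. The biological coefficient of variation was 0.181. Same-numbered sums come from the same library, so the numbers pair them. Their deviations from the stage means correlated at r = 0.121 to 0.440 over the 21 pairs of stages. Intervals are exact binomial or Poisson at 95% and cover counting error only. Limits for 0 counts use 3 UMIs per sum.

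The 8 genes, the other pathway genes and the marker lists were chosen with earlier results of these data known. The text names all 8, those pathway genes that share a ring position with them or have the largest called rise or fall at a step, and the 3 genes with a symbol most alike to each. sgo2, tekt1, pcna and sycp3 values beyond that rule were picked after the values were seen. Alternatives were DESeq2 1.42.0 size factors and Wald test, no count filter, the replicate block, other votes, a 10% mitochondrial limit, doublets left out, cell number in place of UMI totals as the scale, and single replicates.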

Additional observations from a re-analysis of the deposited data

Results flagged for a closer look

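The 941 cells of replicate 2 without a stage, from 2 clusters with almost no cells of replicate 1, were not used in the comparisons and carried the cohesin genes well above the non-germ cells of the same library, plain CPM in both. They had 604 CPM of smc1b against 32.5 in the non-germ cells, 149 of rec8b against 13.4, 13.7 of stag3 against 1.12, 427 of rad21l1 against 40.3, 636 of smc3 against 51.5, 316 of rad21a against 66.1 and 776 of esco2 against 25.8. The median of these cells was 1606 UMIs, below that of the non-germ cells. These levels pool 2 unlike clusters. The larger, with 791 cells of replicate 2 and a median of 1465 UMIs, had raised Leydig markers (2943 CPM in sum). Its spermatogonial and spermatocyte markers summed to more, 4396 and 3441 CPM. The smaller, with 150 cells of replicate 2 and a median of 6499 UMIs, had 4450 CPM of spermatogonial, 2339 of spermatocyte and 106 of Leydig markers. Medians and sums of single clusters include their few cells of replicate 1. The part of depth and of these markers in the levels was not tested.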

How the results depend on the processing

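Of the 8 counts of cohesin genes called, those at SPC-I over SPG-B, SPC-II over SPC-I, SPT-r over SPC-II, SPC-I over the spermatogonial mean and over all stages stayed within 1.5 times the reported count under every alternative run. At SPG-Ad over SPG-Aun 1 gene was called with at least 12 of 15 votes and 1 when scaled by cell number, in place of 0. Over all genes 298 of 13314 and 277 of 13949 were, in place of 161. At SPG-B over SPG-Ad 1 was called with a 10% mitochondrial limit and 5 when scaled by cell number, in place of 3. Over all genes 1954 of 14000 and 6246 of 13949 were, in place of 2515. At SPT-e over SPT-r 3 were called without doublets, in place of 5. Over all genes 3415 of 13922 were, in place of 3798. The cause was not tested. With the replicate block none of the 8 counts moved by over 1.5 times, and the count over all genes moved so at SPG-Ad over SPG-Aun alone, with 282 genes in place of 161. The block also called smc3 at SPC-I over SPG-B (log2 0.44, adjusted p = 0.0293 in edgeR) and changed no other gene's call.

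Signs turned for 21 single values, of which 12 came from scaling by cell number. These were rad21a (0.23) and rec8b (0.26) at SPG-Ad over SPG-Aun, smc3 (−0.54) and smc1b (−0.45) at SPG-B over SPG-Ad, rad21a (0.39) at SPC-II over SPC-I, esco2 (−0.37) at SPC-I over the spermatogonial mean, and at SPT-e over SPT-r stag3 (−2.01), esco2 (−0.031), smc3 (−1.96), rec8b (−1.42), smc1b (−1.07) and rad21l1 (−1.44). The others were values not called. At SPG-Ad over SPG-Aun rad21a was 0.0092 and rec8b 0.25 with 12 of 15 votes, and rec8b 0.013 with 30 neighbours, 0.10 with a 10% mitochondrial limit and 0.10 without standardising within replicates, an alternative added after seeing the data. Without that standardising stag3 was −0.10 at SPC-I over SPG-B and rad21a 0.062 at SPC-II over SPC-I. At SPT-e over SPT-r rad21a was 0.033 with DESeq2 size factors and 0.0092 in DESeq2's Wald test. Values of single replicates have no test and kept their sign for every called gene. Depth limits rec8a (45 UMIs) and stag3 (507 UMIs) most, and SPT-e holds the smallest sums.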
